A study of Mus musculus with 39 samples.

Results

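Genes that mark B cells were followed in brown fat of mice on 5 diets. The genes were Cd79a, Cd79b, Ms4a1, Pax5, Blk, Cd22, Blnk and Cr2, 8 of the 29411 gene symbols on the array. The rule names the genes by symbol, and they were chosen with earlier results of these data known. Each was read from the probes that carry its symbol in the series table, 10 of 40628 probes in all. Cd22 and Cr2 had 2 probes and the other members 1. RNA came from C57BL/6J mice weaned at 3 to 4 weeks of age, and the labels call the tissue brown infiltrating macrophages and SVCs, the stromal vascular cells left when fat cells are removed. LFC mice received a low fat diet with 10% of calories from fat, and HFC mice a high fat, high sucrose diet with 60%. HF5, HF20 and HF75 mice received the HFC diet with 5, 20 or 75 µg of the botanical formulation KAL-1. LFC had 10 arrays (Day 1, 6, 10 and 14 and Week 0, 3, 9, 12, 15 and 18), HFC had 11 (the same and Week 6), and the dose groups had 6 each (Week 3, 6, 9, 12, 15 and 18). Each of the 39 arrays was the only one of its diet and time label, so the spread within a diet is the spread over time points. The labels give 5 animals killed per group every 3 weeks, and do not say whether an array held 1 animal or a pool.

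B cells are the lymphocytes that make antibody. Their receptor is a membrane immunoglobulin that signals through the paired chains Cd79a and Cd79b. Blk is a Src family kinase of the receptor and Blnk the adaptor that ties the receptor to its downstream enzymes, and Blnk is also found in macrophages. Cd22 is a lectin that dampens the receptor through tyrosine motifs in its tail, while Cr2 is the complement receptor that lowers the threshold for it. Ms4a1 is the surface protein CD20, and Pax5 is the transcription factor that holds B cells to their lineage. Fat depots contain B cells, and lymph nodes lie embedded in fat.

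Several arrays need to be known before the values. The series table names its Day 14 columns the other way round from the scanner files, with a correlation of -0.995 over probes between the HFC minus LFC differences of the table and the arrays, so the 2 Day 14 arrays may be exchanged. The Week 12 array titled HF20 has 1 label that gives the high fat diet alone. Spots marked as outliers were left out. HF20 Week 15 lost 71.4% of its spots that way, HF5 Week 12 lost 18.6%, and 11.1% were lost from HFC Week 12. As a result HF20 Week 15 had a value for Cd22 alone, HF5 Week 12 had none for Cd79b, Cd22, Blnk and Blk, and HFC Week 12 had none for Blk and Cr2. The titles of 9 arrays hold BA or BAT. Array brightness, taken as the 75th percentile, lay between 18.1 and 3974 intensity units. The macrophage genes Emr1, Cd68, Csf1r and Mrc1 were well above background on 39 of 39 arrays, but so were Ucp1 and Adipoq, which are made by fat cells.

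The probes of Cd22 and of Cr2 are shown because the probes of each gene did not give the same picture. They are 60 bases long and written 5′ to 3′ as the series table gives them. In the brighter Cd22 probe the capitals mark 6 codons that spell an inhibitory tyrosine motif of the Cd22 tail. The second Cr2 probe is shown for its first 47 bases, up to the stop codon TGA in capitals that ends its open reading frame. The longest run of bases that the Cr2 probes share is 5.
Cd22 brighter probe: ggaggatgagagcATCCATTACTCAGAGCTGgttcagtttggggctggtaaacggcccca
Cd22 second probe: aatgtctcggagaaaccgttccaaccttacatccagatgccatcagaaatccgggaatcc
Cr2 brighter probe: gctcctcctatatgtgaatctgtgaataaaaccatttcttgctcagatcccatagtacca
Cr2 second probe: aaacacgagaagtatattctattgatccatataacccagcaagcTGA

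Promoters from RefSeq (GRCm38.p6) were given for 5 of the 8 genes, Cr2, Pax5, Cd79a, Cd22 and Blnk. Each window ran from 250 bases before to 50 bases after the start, 300 bases in all. They were searched on both strands for ATGCAAAT, the octamer bound by Oct factors and Pou2af1, for CCCNNGGG, the core of the EBF site, and for GAGGAAGT, a site of PU.1. The octamer was in 1 of the 5, that of Blnk, and in 1.74% of 32851 promoters. The EBF core was in 1 of the 5, that of Cd22, and in 13.7% of all promoters, and the PU.1 letters were in 0 of the 5 and in 3.2% of all. The Cd22 and Blnk promoters are shown because both genes were measured on most arrays and moved together, with the matched letters in capitals (the octamer on the reverse strand). The start used for the Cd22 window, on the minus strand, lies within the annotated span of the gene (chr7:30865404-30880342).
Cd22 promoter, chr7:30878979-30879278, minus strand: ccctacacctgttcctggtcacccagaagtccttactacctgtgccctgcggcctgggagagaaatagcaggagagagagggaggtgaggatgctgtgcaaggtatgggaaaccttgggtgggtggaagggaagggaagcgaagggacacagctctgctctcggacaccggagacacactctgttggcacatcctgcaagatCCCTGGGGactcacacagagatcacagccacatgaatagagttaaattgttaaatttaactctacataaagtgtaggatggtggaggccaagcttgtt
Blnk promoter, chr19:40994172-40994471, minus strand: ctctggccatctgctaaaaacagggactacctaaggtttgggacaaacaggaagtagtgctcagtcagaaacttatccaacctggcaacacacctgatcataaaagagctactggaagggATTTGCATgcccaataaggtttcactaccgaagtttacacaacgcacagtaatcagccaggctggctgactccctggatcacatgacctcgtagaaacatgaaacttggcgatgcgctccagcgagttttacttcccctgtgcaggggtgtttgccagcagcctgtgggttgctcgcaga

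The members split by how often they could be measured. Blnk was well above background on 39 of 39 arrays, Cd79b on 38, Ms4a1 on 32 and Cd22 on 25. Cr2 was well above background on 19 arrays, Cd79a on 11, Pax5 on 7 and Blk on 6. These counts include spots marked as outliers, whose values were left out. Among arrays with a value they were 37 for Blnk, 36 for Cd79b, 31 for Ms4a1 and 24 for Cd22. For Cr2, Cd79a, Pax5 and Blk they were 17, 10, 6 and 3. The signal chain Cd79a was therefore seldom measured on arrays where its partner Cd79b was. The results below turn on Cd79b, Ms4a1, Cd22 and Blnk, and the other 4 are given by where they were detected. All 8 met the filter of at least 6 arrays, with marked spots counted, as did 34043 of 40628 probes. Blk would not have met it on arrays with a value alone. Levels are log2 of the signal relative to the 75th percentile of the array, and were compared only within a probe. Every member was lower on brighter arrays, with correlations with the log2 of that percentile from -0.38 for Cd22 (n = 38 arrays) to -0.69 for Blk (n = 36). The percentile enters both quantities, and its part in the levels was not tested.

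Cd79b, the measured signal chain, was spread widely within each diet. Its log2 level on LFC ranged from -2.69 (Week 12) through a median of -0.44 to 2.43 (Week 3). On HFC it ranged from -1.79 (Week 9) through 0.06 to 1.05 (Week 18). On HF5 it ran from -2.48 (Week 9) through -0.94 to 2.88 (Week 6), on HF20 from -2.58 (Week 12) through -0.28 to 1.78 (Week 9), and on HF75 from -2.67 (Week 15) through 0.45 to 1.38 (Week 9). The 5 ranges overlapped, and the highest arrays of all were HF5 Week 6 and LFC Week 3.

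Ms4a1, or CD20, showed the widest range of the 4, with HF5 Week 6 and LFC Week 3 again at its top. Its log2 level on LFC ranged from -4.80 (Week 12) through -1.85 to 2.91 (Week 3), the highest of all 38 arrays with a value. On HFC it ranged from -4.57 (Week 6) through -0.40 to 1.21 (Week 18). On HF5 it ran from -4.89 (Week 15) through -3.17 to 2.28 (Week 6), on HF20 from -4.82 (Week 12) through -1.41 to 0.95 (Week 9), and on HF75 from -5.22 (Week 15) through -0.20 to 0.36 (Week 9). On HF5 the array next below Week 6 was Week 3, at -2.26 and not well above background. On HF75 the order was the reverse, with 5 arrays between -1.20 and 0.36 and Week 15 far below them.

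Cd22, the inhibitory receptor, was nearer to background. Its log2 level on LFC ranged from -5.42 (Week 12) through -4.14 to -0.32 (Week 3), with 6 of 10 arrays well above background. On HFC it ranged from -5.18 (Week 6) through -2.72 to -1.60 (Week 12), with 8 of 11. On HF5 it ran from -5.43 (Week 15) through -3.15 to 0.38 (Week 6), on HF20 from -5.02 (Week 12) through -3.54 to -0.13 (Week 15), and on HF75 from -4.69 (Week 15) through -2.83 to -1.17 (Week 9). The HF20 Week 15 value comes from the array with 71.4% of spots marked, and next to it stood HF20 Week 9 at -0.46. The second Cd22 probe was well above background on 5 arrays and did not meet the filter. Its log2 level was -3.74 on LFC Week 3 and -4.66 on HF5 Week 6, not well above background on either, although the brighter probe had its highest level on HF5 Week 6 and its highest LFC level on Week 3.

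Blnk, the adaptor shared with macrophages, was well above background on every array and had the narrowest range of the 4. Its log2 level on LFC ranged from 0.27 (Day 6) through 1.96 to 4.05 (Day 10), and on HFC from 0.09 (Week 6) through 2.14 to 4.71 (Week 12). On HF5 it ran from 0.98 (Week 9) through 3.25 to 3.89 (Week 6), on HF20 from 0.81 (Week 12) through 2.77 to 3.57 (Week 9), and on HF75 from 0.31 (Week 15) through 2.68 to 3.73 (Week 9). HFC Week 12, its highest array, was also the highest of all for the macrophage genes Cd68, Csf1r and Mrc1, at log2 levels of 2.35, 2.92 and 3.32, and second for Emr1 (3.71). The part of macrophages in the Blnk level was not tested.

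**Figure D1:**
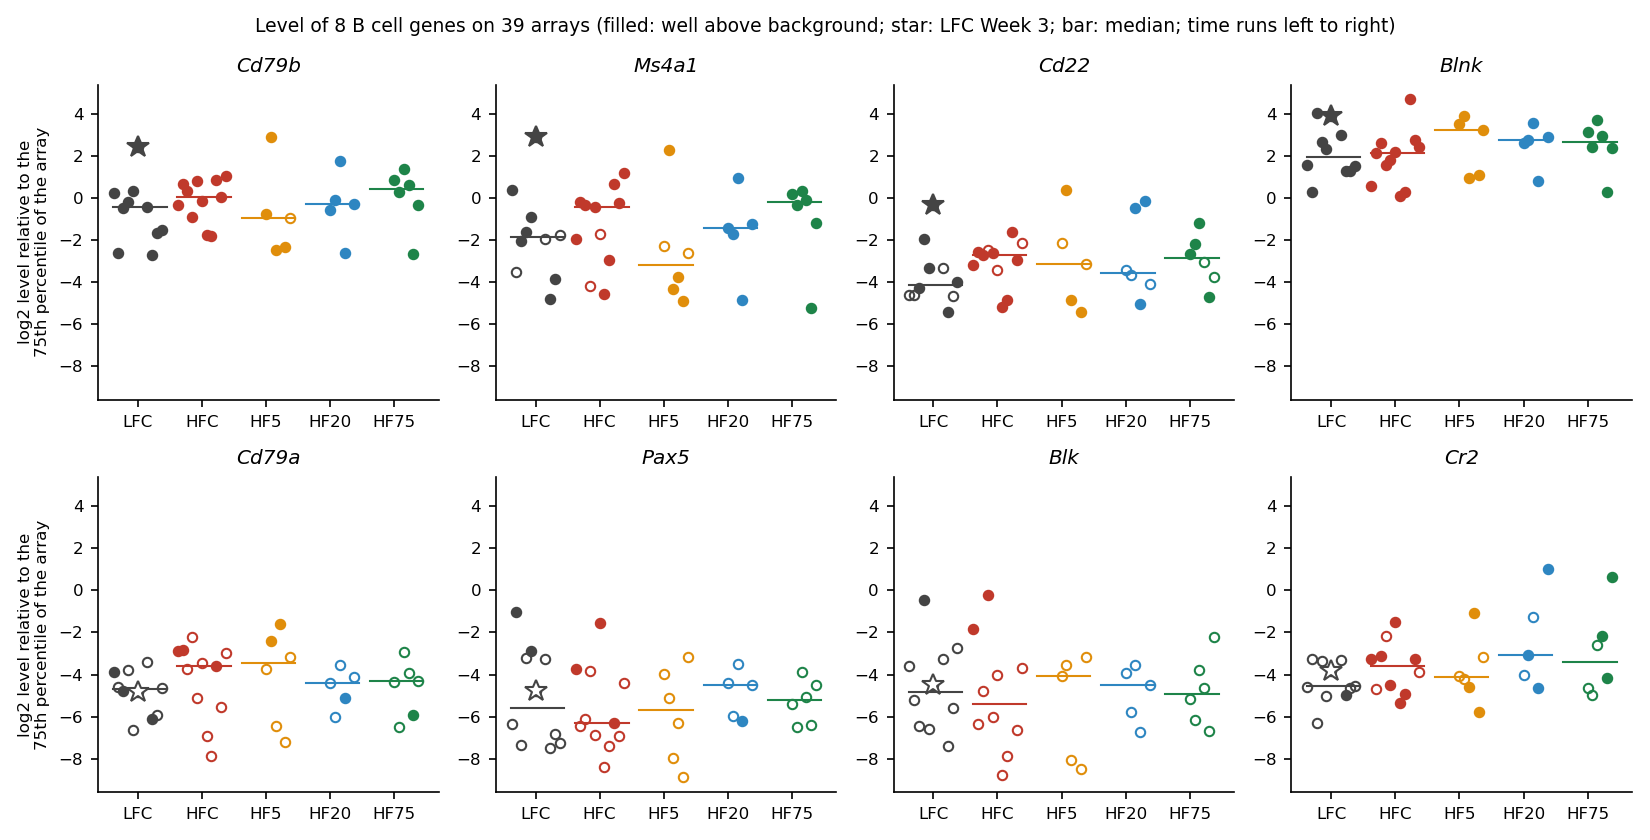
Log2 level of each B cell gene relative to the 75th percentile of its array, with 1 point per array, time running left to right within a diet and a bar at the median. Filled points were well above background. The star, LFC Week 3, stood at 2.91 for Ms4a1 and 2.43 for Cd79b, and was an open symbol for Cd79a, Pax5, Blk and Cr2, for which the brighter probe is drawn.

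The remaining members were detected in places that did not follow the first 4. Cd79a was well above background on 3 of 10 LFC, 3 of 11 HFC, 2 of 6 HF5, 2 of 6 HF20 and 1 of 6 HF75 arrays, and its highest log2 level was -1.61 on HF5 Week 12. On LFC Week 3 it was not well above background, at -4.82. Pax5, the lineage factor, was well above background on 0 of 6 HF5 and 0 of 6 HF75 arrays, and its highest levels were -1.03 on LFC Day 6 and -1.53 on HFC Week 3. Blk was well above background on 0 of 6 HF75 arrays. Its highest log2 levels, -0.20 on HFC Day 14 and -0.45 on LFC Day 14, came from the pair of arrays whose labels are in doubt and which were scanned on 1 date. For Pax5 and Blk no fold could be given against the diets that were not well above background, since the lowest measurable signal there was above the mean of the other diets.

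The probes of Cr2 parted widely on some arrays. The brighter probe was well above background on 19 arrays, with its highest log2 levels on HF20 Week 18 (1.02) and HF75 Week 18 (0.64), which lay on 1 slide. On these arrays the second probe was at -4.50 and -3.97, not well above background. The second probe was well above background on 11 arrays and was highest on LFC Week 3 (-0.77), HF75 Week 3 (-1.08) and HF5 Week 6 (-1.56), where the brighter probe was at -3.85, -4.63 and -4.20 and not well above background. Over 36 arrays the log2 levels of the probes correlated at r = 0.47. The second probe correlated with Cd22 at r = 0.86, with Cd79b at 0.81 and with Ms4a1 at 0.74 (n = 37 each), and the brighter probe with these genes at 0.26, 0.24 and 0.17 (n = 36, 36 and 37). Which of the probes reads Cr2 was not tested.

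Cd79b, Ms4a1 and Cd22 rose and fell together across arrays. Over 37 arrays Pearson's r was 0.95 for Cd79b and Ms4a1 (Spearman's rho 0.95), 0.88 for Cd79b and Cd22 (rho 0.82) and 0.81 for Ms4a1 and Cd22 (rho 0.76). Without the 2 arrays farthest from the median, LFC Week 3 and HF5 Week 6, r was 0.94, 0.83 and 0.74. Within the 28 arrays whose titles hold neither BA nor BAT it was 0.94, 0.82 and 0.69. Blnk followed them at r = 0.75 with Cd79b, and at 0.56 within those 28 arrays. The arrays share the scaling to their own 75th percentile, and these values are a description.

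The arrays high in these genes were not of 1 diet or time. Over the 37 arrays with all 3 genes, each centred on its own mean, their mean level placed HF5 Week 6 at 3.55 log2 units, LFC Week 3 at 3.37, HF20 Week 9 at 2.46 and HF75 Week 9 at 1.89. The low arrays were LFC Week 12 (-2.60), HF5 Week 15 (-2.52), HF75 Week 15 (-2.49), HF20 Week 12 (-2.44), HF5 Week 9 (-2.17) and HFC Week 6 (-2.12). All of these but HFC Week 6 have BA or BAT in the title. The low arrays, HFC Week 6 included, were also bright, with a 75th percentile from 735 (HF75 Week 15) to 1289 (LFC Week 12). The high arrays named were dim, from 18.1 (HF20 Week 9) to 78.9 (HF5 Week 6). HFC Week 12 was bright too, at 950, yet had a mean level of 1.68. The part of brightness was not tested. Over all arrays, Cd79b ranged from -2.69 to -0.30 with a median of -2.48 on the 9 titled arrays, against -1.73 to 2.88 with a median of 0.15 on the others. Genes of other cells moved with the titles too. The mean centred level of 14 T cell genes had a median of -2.21 on the titled arrays and 0.47 on the others, that of 10 macrophage genes -0.82 and 0.29, and that of 10 brown fat cell genes 1.37 and -0.21. Their part in the levels of the B cell genes was not tested, and in bulk RNA fewer B cells and less RNA per B cell cannot be told apart.

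T cell genes were the list that followed Cd79b, Ms4a1 and Cd22 most closely of the 11 lists of other cell types, with r = 0.92 (rho 0.92) over 37 arrays, 0.91 within the 28 arrays without BA or BAT, and 0.93 without HFC Week 9 and HF5 Week 15, the farthest from the median. Lists of B cell genes gave 0.92 for surface and survival genes, 0.91 for early B cell genes, 0.88 for receptor signalling genes, 0.86 for transcription factors and 0.58 for immunoglobulin and plasma cell genes. Lymph node stroma and vessel genes gave 0.80, natural killer cell genes 0.78, neutrophil genes 0.62, erythroid genes 0.61, fibroblast genes 0.59 and macrophage genes 0.58. Plasmacytoid dendritic cell genes gave 0.43, endothelial genes 0.34, skeletal muscle genes -0.16 and brown fat cell genes -0.42.

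**Figure D2:**
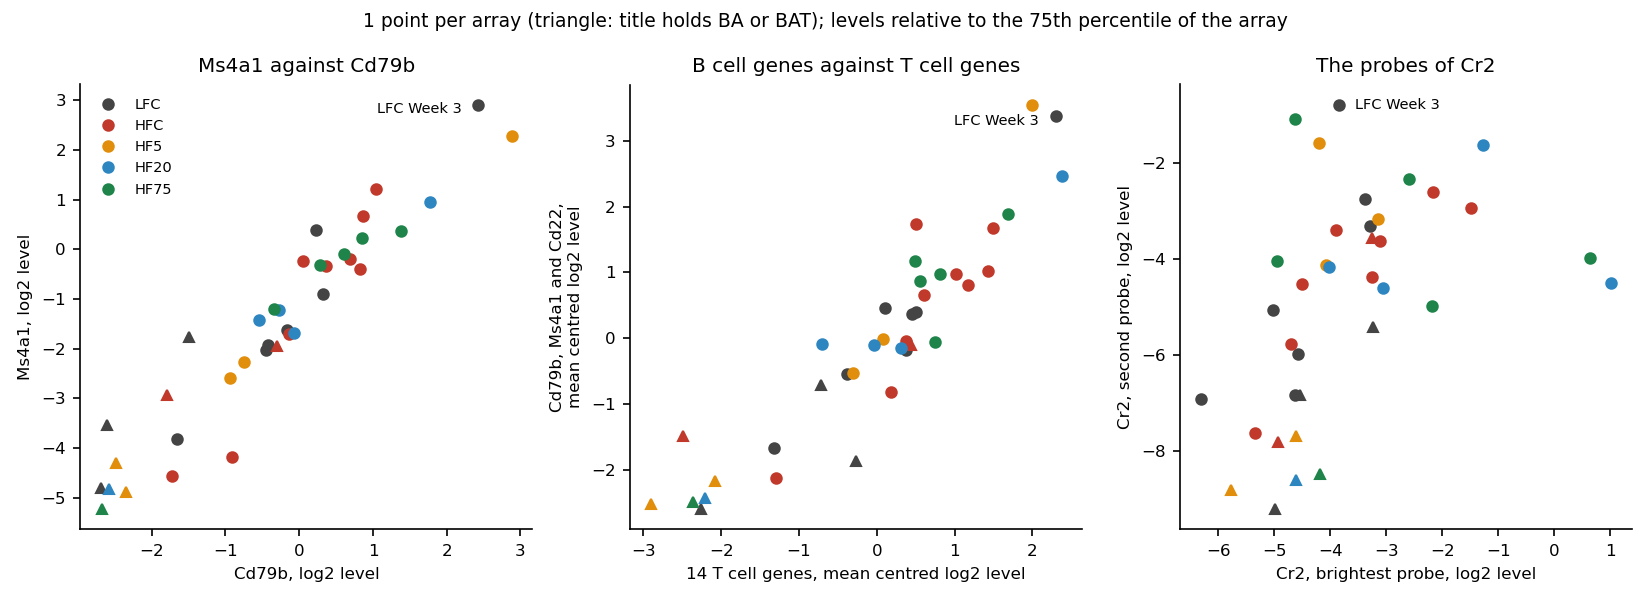
Each point is 1 array, coloured by diet, and triangles are the 9 arrays titled BA or BAT. Ms4a1 tracked Cd79b (r = 0.95), the mean of Cd79b, Ms4a1 and Cd22 tracked 14 T cell genes (r = 0.92), and the probes of Cr2 parted on LFC Week 3 at the upper left and on HF20 Week 18 and HF75 Week 18 at the right.

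The first question of the design is whether the high fat diet changed these genes, and no change passed the test. A single limma model held diet and time label for the 39 arrays, and in it 0 of 8 members were past an adjusted p of 0.05 for HFC against LFC, beside 0% of all 34043 probes. At an unadjusted p under 0.05 there were 0 members and 959 probes (2.82%). Cd79b was higher on HFC by 0.49 (SE 0.65) log2 units, Ms4a1 by 0.31 (SE 0.93) and Cd22 by 0.56 (SE 0.73), and Blnk was at -0.26 (SE 0.55), each with an adjusted p of 1.00. HFC was the higher at 6 of 10 time points for Cd79b and Ms4a1, 7 for Cd22 and 4 for Blnk. At the 6 time points where the pair shared a scan date, HFC was the higher at 5 for Cd79b, Ms4a1 and Cd22, with median differences of 1.26, 2.34 and 1.61. The lower pair was Day 14, whose labels are in doubt. At Week 12 and Week 18 the LFC array alone has BA or BAT in its title, and Ms4a1 differed by 5.46 and 2.98. At Day 10, Week 0 and Week 15, with neither array so titled, it differed by 1.69, 0.50 and 3.59. With the scan date as a fixed block the differences for Cd79b, Ms4a1 and Cd22 were 1.22, 1.51 and 1.26, with an adjusted p of 0.851 each. As a random block it gave 0.66, 0.54 and 0.71, with an adjusted p of 1.00. Other settings made them smaller. Without the 9 arrays titled BA or BAT they were 0.0891, 0.0274 and 0.44, and with normexp background correction 0.15, 0.0041 and -0.33. LFC Week 3 bore on them as well, since without it they were 0.84, 0.81 and 0.96, with an adjusted p of 0.997 each. With the Day 14 arrays exchanged, Ms4a1 differed by 0.81.

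The doses of KAL-1 were set against HFC in the same fit, and again 0 of 8 members passed for HF5, HF20 or HF75, beside 0% of probes in each comparison. Unadjusted, 0 members and 498 (1.46%), 907 (2.66%) and 1210 (3.55%) probes were under 0.05. For Ms4a1 the difference from HFC was -1.24 (SE 1.15) on HF5, -0.68 (SE 1.23) on HF20 and 0.30 (SE 1.15) on HF75. For Cd79b it was -0.63 (SE 0.87), -0.37 (SE 0.87) and 0.23 (SE 0.81) in the same order. Cd22 differed by -0.01 (SE 0.97), 0.35 (SE 0.91) and 0.24 (SE 0.91), and Blnk by 0.57 (SE 0.72), 0.33 (SE 0.72) and 0.48 (SE 0.68). Ms4a1 was lower on HF5 than on HFC at 5 of 6 time points, all with a shared scan date, and higher at Week 6 by 6.85. Among the lower HF5 arrays, Ms4a1 was not well above background at Week 3 and Week 18. HF5 Week 9 and Week 15 have BA or BAT in the title, as has HFC at Week 9 but not at Week 15. HF5 Week 12 lost 18.6% of its spots. Without the titled arrays the HF5 difference was positive for Cd79b and Cd22. Without Week 6 the HF5 difference was -2.67 for Ms4a1, -1.76 for Cd79b and -1.20 for Cd22, with an adjusted p of 1.00 each. On HF75 all 8 members, including those mostly below background, had differences above 0, from 0.14 for Cd79a to 1.09 for Blk with a median of 0.39, beside a median of 0.05 over all probes. These signs did not hold throughout. The plain mean of Cd79a was lower on HF75 (-4.65) than on HFC (-4.29), and Cd79a was lower at 4 of 6 time points. At the 2 time points where HF75 and HFC shared a scan date, Cd79a, Cd79b, Ms4a1, Cd22 and Blnk were lower on HF75 at both. These were Week 12, where HFC lost 11.1% of its spots, and Week 15, where HF75 but not HFC has BA or BAT in its title. With the scan date as a fixed block Cd79b, Ms4a1 and Blnk differed by -0.31, -0.48 and -0.25, and without Week 6 Cd79b, Ms4a1 and Cd22 by -0.0145, -0.30 and -0.19. The 3 doses were compared with the same HFC arrays. The fit left out spots marked as outliers, so HF20 rests on 5 arrays for Cd79b, Ms4a1 and Blnk, and HF5 on 5 for Cd79b, Cd22 and Blnk.

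These sizes are to be read against what the fit could find. In simulated data with the same arrays, it recovered 55% of probes changed 4-fold for HFC against LFC, 28.5% for HF5, 21% for HF20 and 33.5% for HF75, and 0% of those changed 2-fold. These shares are over probes and not for the members, whose SE was larger. The median SE over all probes was 0.46, 0.57, 0.59 and 0.56 in that order, against 0.93, 1.15, 1.23 and 1.15 for Ms4a1.

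**Figure D3:**
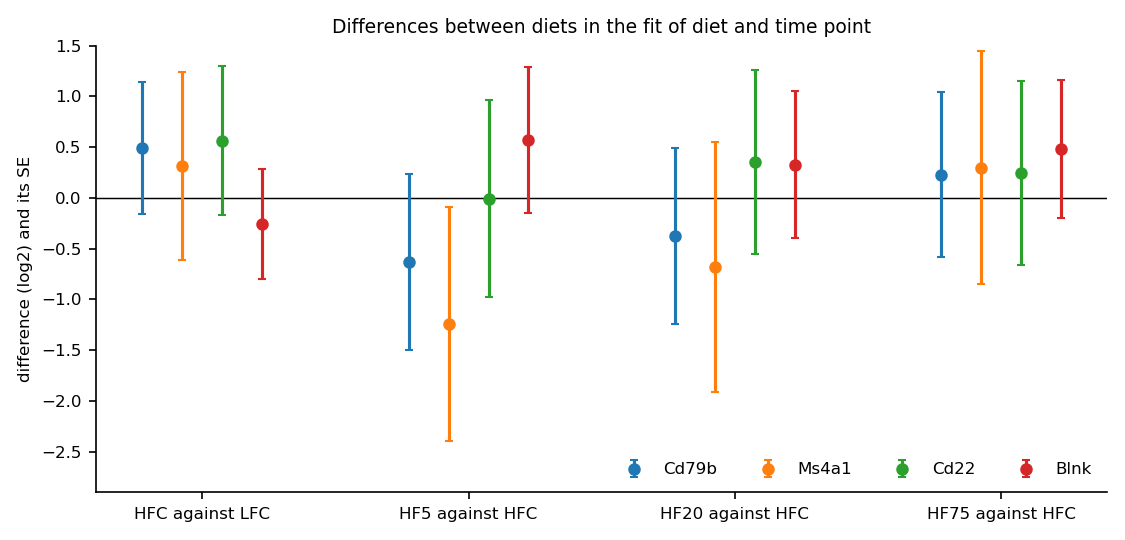
Difference in log2 level between diets for Cd79b, Ms4a1, Cd22 and Blnk, with bars of 1 SE from the fit of diet and time point. The bars reach or cross 0 for all but Ms4a1 on HF5, at -1.24 (SE 1.15), which did not pass the test.

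Over time on the LFC and HFC diets the members showed no slope past the threshold. In a limma fit of 21 arrays, from Day 1 to Week 18, 0 of 8 members were past an adjusted p of 0.05, beside 0% of probes, and 0 members and 4057 probes (11.9%) were under 0.05 unadjusted. The slope per doubling of the days was -0.09 (SE 0.13) log2 units for Cd79b, -0.09 (SE 0.20) for Ms4a1, -0.01 (SE 0.13) for Cd22 and 0.10 (SE 0.13) for Blnk, with adjusted p of 0.735, 0.849, 0.982 and 0.717. In simulated data a 4-fold change over the whole course was recovered for 0% of probes and a 16-fold change for 66%. Each of the slopes given above had a larger SE than the median over all probes (0.11).

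The wider B cell lists behaved alike in these fits. Of 16 receptor signalling genes, 14 surface and survival genes, 10 transcription factors, 9 immunoglobulin and plasma cell genes and 5 early B cell genes, 0 passed in any of the 5 comparisons. For HFC against LFC the median log2 difference was 0.14, 0.39, 0.07, 0.30 and 0.35 in that order and 0.40 for the members, beside 0.05 over all probes. The leading genes of 2 of these lists were Fcer2a, a low affinity IgE receptor of B cells (1.02, SE 0.88), and Irf4, a factor of activated B cells and plasma cells (1.20, SE 0.38). Irf4 was the only gene of these lists under an unadjusted p of 0.05 here, with an adjusted p of 1.00 in the limma fit. It was higher on HFC at 10 of 10 time points, with 7 of 11 HFC and 3 of 10 LFC arrays well above background.

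For HF5 against HFC, 11 of 14 surface and survival genes were lower, with a median of -0.42, beside -0.03 over all probes. Faim3, a receptor for IgM, differed by -1.31 (SE 1.07). Lists of other cells moved as well, with 12 of 14 T cell and 8 of 8 endothelial genes lower and 9 of 10 neutrophil genes higher. For HF75 against HFC 10 of the 14 surface and survival genes were higher, with a median of 0.45, beside 0.05 over all probes. There 10 of 10 neutrophil genes were higher (median 1.41) and 7 of 8 endothelial genes lower. Over time Igj, the joining chain of secreted antibody, had a slope of 0.73 (SE 0.17) log2 units per doubling of the days, with an unadjusted p of 0.00024 and an adjusted p of 0.147 in the limma fit. It did not pass, and the unadjusted p was smaller for it than for any other gene of these lists. Ighg also had a slope above 0 (0.25) at an unadjusted p under 0.05, while Cd40 (-0.36), Tcf3 (-0.26), Vav1 (-0.26) and Lyn (-0.21) had slopes below 0. That makes 2 of 16 receptor signalling, 1 of 14 surface and survival, 1 of 10 transcription factor, 2 of 9 immunoglobulin and plasma cell and 0 of 5 early B cell genes, beside 11.9% of probes. Under an unadjusted p of 0.05 on the doses were Ebf1, an early factor of the B lineage, on HF5 (-0.89, SE 0.39), Prdm1, the factor of plasma cells, on HF20 (-1.42, SE 0.51), and Ikzf3, a factor of mature lymphocytes, on HF20 (1.90, SE 0.91) and HF75 (2.58, SE 0.85), none past the threshold. Cd81, Tnfsf13b and Ptpn6 made up the rest.

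LFC Week 3 is described apart because its high level was known. It is 1 array, so no test is possible, and it was the only array of its scan date. Ms4a1 was at a log2 level of 2.91 there, against -4.80 to 0.39 with a median of -1.92 on the 9 other LFC arrays, a difference of 4.83 (28.4-fold). Cd22 was at -0.32 against a median of -4.28 (3.95, 15.5-fold) and Cd79b at 2.43 against -0.45 (2.88, 7.34-fold). All 3 lay above every other LFC array. Ms4a1 was well above background on 6 of those 9 arrays, Cd22 on 5 and Cd79b on 9. Blnk was at 3.90 against 1.57 (2.33, 5.03-fold), below LFC Day 10. Against the median of the 4 other arrays of Week 3, Ms4a1, Cd22 and Cd79b were at 2.91 against -1.56, -0.32 against -3.02 and 2.43 against -0.34.

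Of the 8 members, 5 were at least 2-fold above the median of the other LFC arrays, beside 18.9% of the 34034 probes with a value, and 4 were at least 4-fold above, beside 4.9%. LFC Week 3 was above every other LFC array for 3 of 8 members and for 8.17% of probes. The fifth, Pax5, was not well above background on this array, nor were Cd79a, Blk and the brighter probe of Cr2. The second Cr2 probe, which the count does not use, was well above background there at -0.77, its highest level of all, with the next LFC array at -2.75. The median of all probes was itself shifted by 0.12. With normexp background correction, 3 of 8 members were at least 2-fold above, and the differences were 2.08 for Ms4a1, 1.56 for Cd79b and 0.47 for Cd22.

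Other genes of B cells stood high on the same array. Of 14 surface and survival genes 12 were at least 2-fold above, led by Faim3 (5.30), Tnfrsf13c, the receptor for the survival factor BAFF (4.69), and Cxcr5, the receptor that draws B cells to follicles (3.80). On the 9 other LFC arrays these were well above background 6, 4 and 4 times, so the medians of Tnfrsf13c and Cxcr5 rest on arrays near background. Of 16 receptor signalling genes 8 were, led by Fcrla (5.01) and Bank1 (3.84), and of 10 transcription factors 3 were: Pou2af1 (4.05), Spib (3.01) and Bcl11a (2.13). Fcrla was well above background on 4 of the 9 other arrays, Spib on 3, Bank1 and Bcl11a on 7 and Pou2af1 on 9. Of 5 early B cell genes 4 were, led by Il7r, the receptor for the growth factor IL-7 (5.16), which was well above background on 5 of the 9. Of 9 immunoglobulin and plasma cell genes 1 was, Sdc1 (1.73), and 3 were at least 2-fold below, beside 11.7% of all 34034 probes with a value. The 3 genes below were the plasma cell factors Prdm1 (-1.65) and Xbp1 (-1.35) and the immunoglobulin gene Ighm (-1.02). Prdm1 and Ighm were not well above background there. Igj was at 0.08.

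Genes of other cells moved on this array too. Of 14 T cell genes 13 were at least 2-fold above, among them Lat (4.57) and Cd5 (4.21), with Cd3e at -1.70 and not well above background. Of 10 lymph node stroma and vessel genes 7 were, led by Glycam1 (10.77) and Ccr7 (4.78), measured above background on 1 and 8 of the 9 other LFC arrays, with Cxcl13 at 0.96 and Madcam1 at -1.83 and not well above background. Glycam1 is a mucin of lymph node venules, and Ccr7 is a homing receptor of lymphocytes. All 10 skeletal muscle genes were also at least 2-fold above, with a median of 1.90, as were 1 of 10 macrophage genes and 0 of 8 endothelial genes. The part of these genes' cells in the level of the B cell genes was not tested.

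Glycam1 was high on some arrays high in the B cell genes and low on others. It had log2 levels of 5.14 on LFC Week 3, 2.73 on HFC Week 3 and 0.53 on HFC Week 18, its 3 highest, and was well above background on 11 arrays. HFC Week 18 was also the highest HFC array for Cd79b (1.05) and Ms4a1 (1.21). On HF5 Week 6, where Cd79b was at 2.88 and Ms4a1 at 2.28, Glycam1 was at -5.23. HFC Week 3, with Glycam1 at its second highest, had Cd79b at -0.13 and Ms4a1 at -1.71, the latter not well above background. Ccr7 was high on both LFC Week 3 (2.89) and HF5 Week 6 (3.05).

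**Figure D4:**
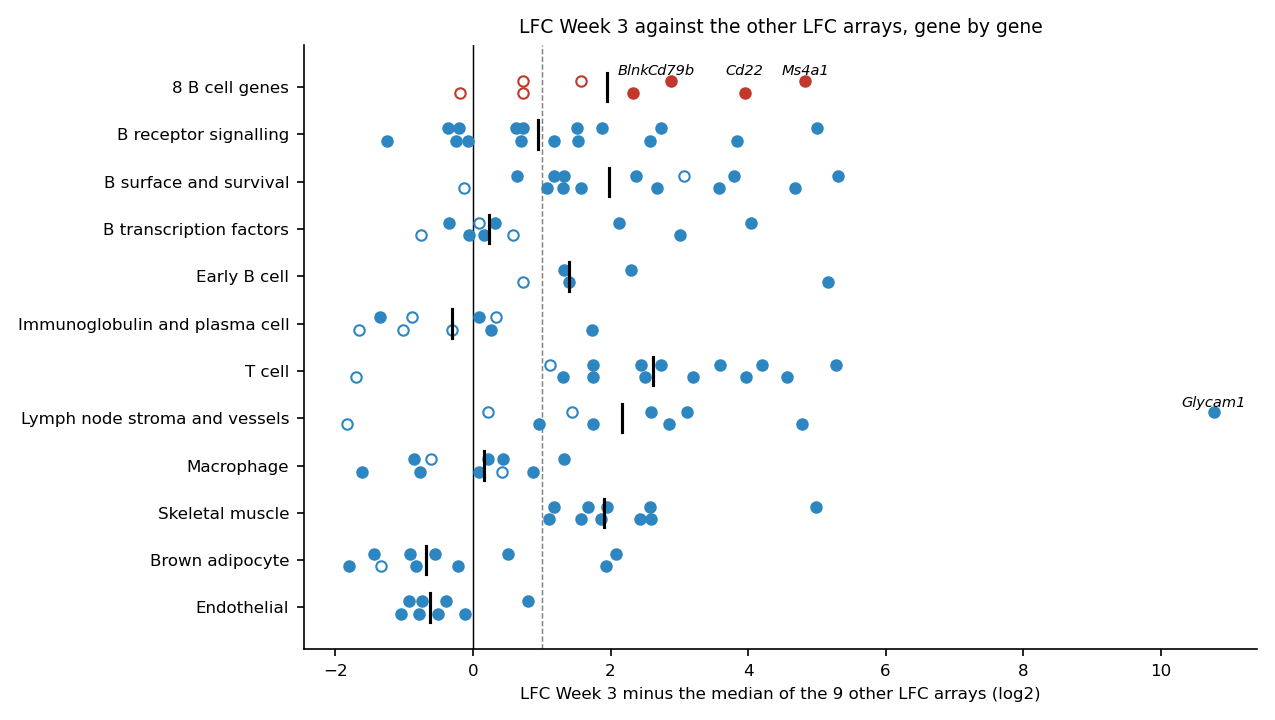
Log2 difference between LFC Week 3 and the median of the 9 other LFC arrays, with 1 point per gene, filled where the gene was well above background on LFC Week 3, a black bar at each list's median and a dashed line at 2-fold. The median was 1.95 for the 8 B cell genes, 2.62 for T cell genes, 0.16 for macrophage genes and -0.63 for endothelial genes.

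The genes most like the members were sought by correlation, as a description. With the mean of all 8 members over 39 arrays, the 10 genes of highest r were LOC673370 (0.92), Fcrl1 (0.91), Gm8369, 4930417O13Rik, Klrc1, Fcer2a, Nmnat2, LOC100047904, Tnfrsf13c and Cd27 (0.89). Of 10 over the 38 arrays without LFC Week 3, 7 were among them (LOC673370, Gm8369, Klrc1, Fcrl1, 4930417O13Rik, Fcer2a and Tnfrsf13c), beside Klra3, Rfpl3s and Glb1l3. The profile on HF20 Week 15 rests on Cd22 alone, and 4 of the 8 members were well above background on 19 arrays or fewer. Many of the genes named were seldom measured too. Fcrl1, LOC100047904 and Glb1l3 were well above background on 6 arrays, Klrc1, Nmnat2 and Rfpl3s on 7 and Klra3 on 11. Gm8369 was so on 13, 4930417O13Rik on 14, Fcer2a on 20, Cd27 on 22, Tnfrsf13c on 24 and LOC673370 on 35. With the mean of Cd79b, Ms4a1 and Cd22, a set chosen after its values were seen, the leading genes over 37 arrays were Faim3 (0.97), the transcript ENSMUST00000103291 (0.95), Pou2af1 (0.94), Cd5 (0.94), Cxcr5 (0.94), Fcrla (0.94), Cd6 (0.93), Ccr7 (0.93), Tnfrsf13c (0.93) and P2ry10 (0.93). Pou2af1 is the coactivator that binds Oct factors on the octamer, and Cd5 and Cd6 are surface receptors mostly of T cells. The same 10 genes led without LFC Week 3.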

How the data were processed

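Brown fat stromal vascular RNA was hybridised to 39 one-colour Agilent arrays. The deposited scanner output gives an intensity for each spot, which Feature Extraction 10.5.1.1 had background-subtracted per the file headers (9.1 in the submitters' processing notes) and which was not scaled across arrays. A second deposited file, the series table, has log2 values that the authors scaled and set against LFC at each time point. It gave gene symbols and probe sequences, and its values were used for the check of the Day 14 labels only. The log2 of the processed signal minus the 75th percentile of the array was taken, spots marked as outliers were left out and spots of a probe averaged. Probes well above background on at least 6 arrays, with marked spots counted, were kept (34043), and each gene was read from its brightest probe. Precision is limited by signal over background, with 31.2% to 98.0% of spots well above it (median 57.3%).

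Diets were compared with limma 3.58.1 in R 4.3.3, in a fit of diet and time point, and a slope over the log2 of days used 21 arrays. Two-sided tests were used, with Benjamini-Hochberg adjustment across every kept probe. They measure the spread between time points, since the labels give no repeat arrays. The fit was tested on simulated data with 200 changed probes. Time points are shared blocks and not animals. The arrays came from 18 scan dates, each of 1 time label, and 36 slides. The members and lists were chosen with earlier results of these data known. Named genes are the 8 members, the 3 genes of a list with the largest difference and its defining genes, and the 10 genes most correlated with the members, and some genes that this rule names are not reported here. Lists of plasmacytoid dendritic, natural killer, neutrophil, erythroid and fibroblast genes were also read, and on LFC Week 3 held 3 of 7, 3 of 8, 2 of 10, 2 of 6 and 1 of 8 genes at least 2-fold above. Alternatives covered scaling, background, filters, marked spots, blocks, weights, probes, tests, titles and left-out arrays. Python 3.11.15 and matplotlib 3.10.9 were used otherwise.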

Additional observations from a re-analysis of the deposited data

Results flagged for a closer look

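In 34 sets of a gene and a diet with 4 to 10 values, 2 held an array that stood apart by Dixon's ratio, and chance marks about 1 in 20 such sets. Ms4a1 on HF5 Week 6 was at a log2 level of 2.28, with the next HF5 array at -2.26, and was well above background. Ms4a1 on HF75 Week 15 was at -5.22, with the next HF75 array at -1.20, was well above background as well, and has BA or BAT in its title.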

How the results depend on the processing

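No member passed the threshold under any of the alternatives run. With no replicate block for the time point 0 probes passed in each of the 4 diet comparisons, as with it, but Ms4a1 and Blnk for HF20 moved to -0.31 and 0.60, Cd79b and Cd22 for HF75 to 0.11 and 0.15, and Cd22 for HF5 turned to 0.0239. The slide could not be fitted for the slope over time, since none of its arrays share one. Counts of probes that passed moved from 0 to 32 with array weights, 3 with quantile normalization, 2 with the scan date as a random block and 2 without the titled arrays for HFC against LFC, to 3 without the titled arrays for HF75, and to 5 with quantile normalization and 5 with the stricter filter of 20 arrays for the slope. Members at least 2-fold up on LFC Week 3 numbered 3 with normexp, and 4 to 5 leaving out each other LFC array.

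For HFC against LFC, normexp gave -0.33 for Cd22 and 0.0001 for Blnk, the fixed scan date 0.21 for Blnk, and leaving out 3 arrays with many marked spots -0.0635 for Ms4a1. For HF5, Cd22 was at 0.60 with all spots, 0.12 and 0.47 with the scan date as a random and fixed block, 0.091 with array weights, 0.0239 with the methods' t-test, 1.70 without titled arrays and 0.28 without the arrays of marked spots, Blnk at -0.13 with normexp and Cd79b at 0.28 without titled arrays. For HF20, Blnk was at -0.39 with the fixed scan date, and Cd22 at -0.98 with array weights and -0.0132 without the arrays of marked spots. For HF75, Blnk was at -0.0467 with normexp, the fixed scan date gave -0.31, -0.48 and -0.25 for Cd79b, Ms4a1 and Blnk, and array weights -0.24, -0.15 and -0.25 for Cd79b, Ms4a1 and Cd22. The slope was 0.0177 for Ms4a1 and 0.10 for Cd22 with quantile normalization, 0.0242, 0.0239 and 0.14 for Cd79b, Ms4a1 and Cd22 with array weights, and 0.0872 for Cd22 without titled arrays. The cause was not tested.

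Leaving out 1 time point, or LFC Week 3 alone, gave ranges. For HFC against LFC these were 0 to 1 probes and -0.23 to 0.87 for Ms4a1. For HF5 they were -2.67 to -0.72 for Ms4a1, -1.76 to -0.31 for Cd79b, -1.20 to 0.54 for Cd22 (0.1911 without LFC Week 3) and -0.0682 to 0.97 for Blnk. For HF20 they were -1.22 to 0.17 for Cd79b, -1.72 to 0.13 for Ms4a1, -0.35 to 0.94 for Cd22 and -0.22 to 1.09 for Blnk. For HF75 they were -0.27 to 0.77 for Cd79b, -0.30 to 1.20 for Ms4a1 and -0.34 to 0.58 for Cd22. For the slope they were 0 to 1 probes, -0.13 to 0.0209 for Cd22 and -0.0097 to 0.14 for Blnk. Of 524 values of Cd79b, Ms4a1, Cd22 and Blnk under other settings, 59 changed sign and 465 kept it. Cd79a, Pax5, Blk and Cr2, mostly below background, changed sign in 54 of 504. Arrays exchanged at Day 14, a setting chosen after seeing the data, turned no sign of the measured members.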
